A study of Mus musculus with 57 samples.

Results

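Nephritic kidneys of 36-week-old NZB/W mice (n = 10) were compared with kidneys of 23-week-old NZB/W mice at the onset of proteinuria (n = 6), over all 16475 genes measured. These 16 arrays were chosen by the group and age in their labels, out of 57 arrays of whole-kidney RNA in the series. NZB/W is a hybrid of the New Zealand Black and New Zealand White strains that develops lupus spontaneously. The labels name no transgene and no treatment for any group used here. The other NZB/W kidneys were taken at 16 weeks before nephritis (n = 8) and at 23 weeks without proteinuria (n = 11), and entered the same fit. NZM2410 kidneys (5 nephritic, 5 prenephritic) and NZW/BXSB kidneys (6 nephritic, 6 prenephritic), with no age stated, served for comparison. For the 36-week kidneys one label field said prenephritic and another nephritic, both with proteinuria, and the latter was followed. For the onset kidneys the labels gave the prenephritic stage with proteinuria beginning. Age and stage differ together here, so 13 weeks of age and the passage from onset to established nephritis cannot be told apart.

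In lupus nephritis, antibodies against nuclear antigens lodge with their antigens in the glomerulus, the filter of the kidney, and draw in complement and leukocytes. Protein then leaks into the urine, and the tubules that reclaim filtered solutes come under stress. With time the infiltrate can spread to the tissue between the tubules, where T cells, B cells and antibody-producing plasma cells gather and release cytokines such as interferon-gamma. Interferon-gamma raises the genes of antigen presentation and of chemokines that call in more T cells. The proximal tubule, the segment richest in mitochondria, tends to lose transporters and enzymes of oxidative metabolism as the kidney is damaged.

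Levels are log2 values, in which a step of 1 is a 2-fold difference, and changes are log2 differences of group means ± standard error from 1 limma fit over all 35 NZB/W arrays. A gene was called where its Benjamini-Hochberg adjusted p over the 16475 genes was under 0.05, and "rose" and "fell" refer to called genes. Whether each array stands for its own animal is not said in the labels, and the p-values therefore describe the scatter among these arrays, whose number sets the precision. For each gene the fit shares 1 spread over the 4 NZB/W groups. The SD of Ubd was 0.12 at 16 weeks, 0.26 at 23 weeks without proteinuria, 0.29 at onset and 1.32 at 36 weeks. That of Meis2 was 0.19, 0.23, 0.10 and 0.20. Where the 2 compared groups scatter more than the others, standard errors and p-values come out too small. In whole-kidney RNA, fewer cells of a type and less RNA per cell cannot be told apart. Genes of the H2, immunoglobulin, Cyp2d and Slc22a families have close copies that may be read by the same probes, which leaves the member measured uncertain.

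Onset replicate 5 stood apart from the other onset arrays. On the first principal component of the 16 arrays (33.5% of the variance) it lay at 21.8, while the other onset arrays lay between -27.7 and -10.8 and the 36-week arrays between -16.4 and 45.9. Its mean correlation with its group was 0.972, against 0.987 to 0.990 for the others, and its Gapdh 3' minus 5' signal, a measure of RNA integrity, was 0.463, against at most 0.0940 in the other onset arrays. At 36 weeks this signal ran from -0.0512 to 0.566, with replicates 1, 3, 4, 5 and 9 at 0.248 or more. The group means were 0.108 ± 0.180 at onset and 0.204 ± 0.192 at 36 weeks (SD, exact permutation p = 0.338, adjusted 0.675). In onset replicate 5 Lcn2, an injury gene of the tubule, stood at 11.13, and Gatm at 9.93. Values without this array are given beside the results it moves. Since it lay within the 36-week range on the first component, leaving it out tends to enlarge the differences and to narrow the onset scatter. Calls made without it follow in part from that choice and are no separate support. Kidney markers were high on all 16 arrays, with Umod of the thick ascending limb between 13.03 and 13.80. RNA of neighbouring tissue was also present. The mean level of 9 adrenal cortex markers ran from 5.75 to 9.19 at onset and from 5.17 to 7.09 at 36 weeks, and that of 7 fat cell markers from 8.47 to 10.17 and from 7.32 to 9.86. Spiked hybridization controls averaged 10.27 ± 0.22 at onset and 9.90 ± 0.40 at 36 weeks (SD, exact permutation test over 8008 splits, two-sided, p = 0.0586, 0.234 adjusted over 4 tests). Titles share a middle part in some samples, whose meaning is not given, and no such part is shared between both groups, so that grouping and the stage cannot be told apart.

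At 36 weeks 382 genes differed from onset, 2.32% of those tested. Of these, 94 rose (0.571%) and 288 fell (1.75%), 5 of the rises and 6 of the falls by 2-fold or more, and 3936 genes had an unadjusted p under 0.05. The median change was 0.41 among rises and -0.39 among falls, against a median standard error of 0.0803 over all genes. Among the genes that rose furthest were interferon-inducible, chemokine, antigen-presentation and lymphocyte genes, and those that fell furthest included enzymes and transporters of the proximal tubule. The count rested strongly on single arrays and on the fit. It was 2008 without onset replicate 5, with 638 rises (3.87%) and 1370 falls (8.32%), and 19 without onset replicate 2. Without the other onset replicates 1, 3, 4 and 6 it was 48, 94, 121 and 60, and without 36-week replicates 4, 5, 9 and 10 it was 96, 93, 957 and 791. With the title part as a random block, 73 genes were called, and with the 16 arrays of both groups alone 1 gene, Meis2, was called. With the adrenal marker level or the fat marker level as a covariate, both chosen after the data were seen, 37 and 32 genes were called, and 9 with the hybridization controls. Of the 60 genes called among those named, 17 stayed called with the title part as a block, 9 with the adrenal level, 8 with the fat level, 4 with the hybridization controls, 21 with the Gapdh signal and 33 with quantile normalization. Counts of list members without onset replicate 5 are to be read against its larger shares of all genes. For every list, leaving out some 1 of the 16 arrays left 0 members called as rising. The same held for falling members, except that the mesangial, pericyte and smooth muscle list and the renin-angiotensin list kept at least 1.

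**Figure D1:**
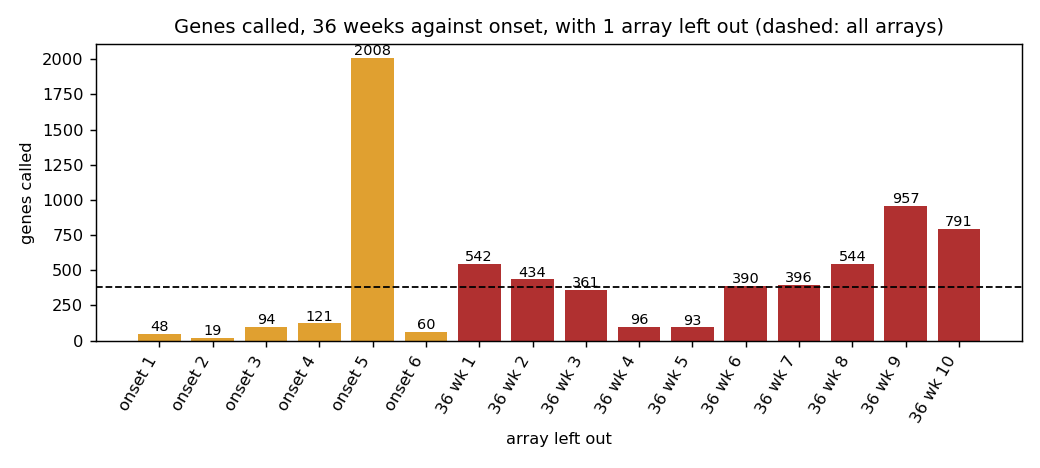
Bars give the number of genes called at an adjusted p under 0.05 for 36 weeks against onset when the array on the horizontal axis is left out (amber, onset; red, 36 weeks). The dashed line is the 382 genes with all arrays. Without onset replicate 5 the count is 2008, and without each of the other onset arrays it is between 19 and 121.

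Between the groups, 17 genes stayed called with any 1 of the 16 arrays left out, chosen here after their values were seen. Among the 15 that fell were Cela1, an elastase gene, Trim7, Myh11, the myosin of smooth muscle, Agtr1a, the angiotensin II receptor, the homeobox gene Meis2, the guidance receptor gene Robo1, flagged by the authors as not expressed, and Atp5g3, a subunit of ATP synthase. The 2 that rose were Aph1a, a subunit of gamma-secretase, and Pitpnm1, a phosphatidylinositol transfer protein, by 0.41 ± 0.07 (adjusted p = 0.00478). All 17 stayed called with the adrenal marker level as a covariate and with the title part as a random block. With the fat marker level 12 did, with quantile normalization 15, with the hybridization controls 6 and with the 16 arrays alone 1. The groups did not overlap for 31 genes (0.188% of those tested), 15 higher and 16 lower at 36 weeks, of which 7 and 15 were called. In all 15 the onset mean lay below that of the 23-week non-proteinuric kidneys, and in all 16 it lay above. These genes were picked by their onset values, which enter both comparisons, so the shared direction follows in part from that choice.

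Genes that interferon-gamma induces and chemokine genes were among the largest rises. Log2 levels of Ubd ran from 5.38 to 6.19 at onset (median 5.65) and from 5.52 to 9.47 at 36 weeks (median 7.06). Ubd, which encodes FAT10, a ubiquitin-like tag for proteasomal breakdown induced by interferon-gamma and tumour necrosis factor, rose by 1.64 ± 0.36 (adjusted p = 0.0193), the largest of the 94 rises. In 8 of 10 nephritic kidneys it exceeded every onset array, while 36-week replicates 8 and 10, at 5.92 and 5.52, lay within the onset range. At onset, Cxcl9 lay between 6.40 and 7.14 (median 6.84), and at 36 weeks between 6.53 and 9.26 (median 7.92). Cxcl9 encodes a chemokine that attracts activated T cells through CXCR3. It rose by 0.95 ± 0.25 (adjusted p = 0.0388), with 6 of 10 nephritic kidneys above all onset kidneys and replicate 5 the highest at 9.26. Gbp8 had levels of 4.18 to 4.86 at onset (median 4.56) and of 4.71 to 7.36 at 36 weeks (median 5.30). Gbp8, of the interferon-inducible guanylate-binding proteins, rose by 1.17 ± 0.28 (adjusted p = 0.0302). Its nephritic levels were uneven: replicates 1, 3 and 5 lay between 6.93 and 7.36, and the other 7 at or below 5.44.

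**Figure D2:**
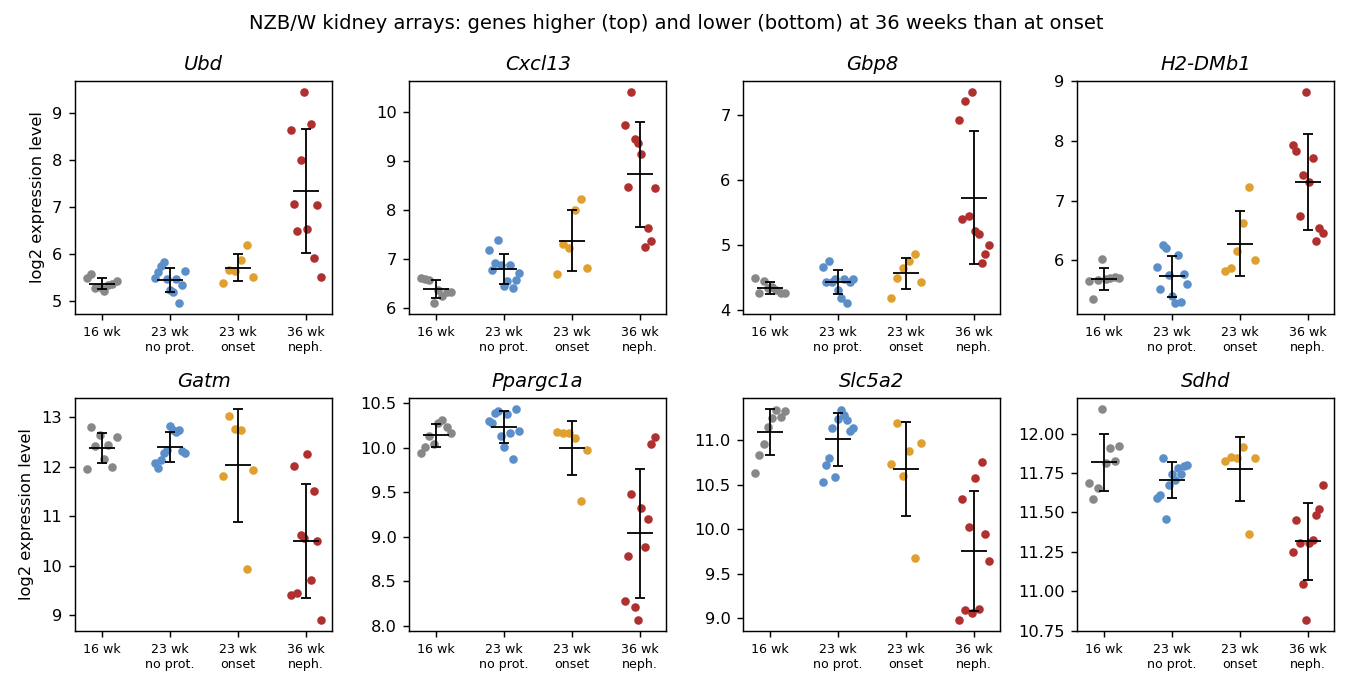
Log2 level on each NZB/W array for Ubd, Cxcl13, Gbp8 and H2-DMb1, which rose (top), and Gatm, Ppargc1a, Slc5a2 and Sdhd, which fell (bottom), between onset and 36 weeks, with the mean and SD of each group in black. The 36-week kidneys spread widely, and in the bottom row onset replicate 5 sits below the other onset arrays.

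Log2 levels of Cxcl13 ran from 6.68 to 8.21 at onset (median 7.26) and from 7.25 to 10.41 at 36 weeks (median 8.80). Cxcl13, the chemokine that draws B cells into lymphoid follicles, rose by 1.35 ± 0.32 (adjusted p = 0.0291), and 7 of 10 nephritic kidneys lay above every onset kidney. The nephritic kidney highest in Cxcl13 was replicate 3, in which Cxcl9 stood at 6.84, within the onset range. Cxcl14 had levels of 6.14 to 7.15 at onset (median 6.31) and of 6.16 to 7.79 at 36 weeks (median 7.04). Cxcl14, a chemokine made by epithelia and stroma, rose by 0.60 ± 0.17 (adjusted p = 0.0453). Here the groups overlapped, and onset replicate 5 was the highest onset kidney at 7.15. Of the 5 interferon-inducible and chemokine calls, 5, 5, 4, 2 and 5 were lost without onset replicates 1, 2, 3, 4 and 6 in that order, and 1, 1, 3, 4 and 2 without 36-week replicates 1, 3, 4, 5 and 6 in that order, the highest adjusted p being 0.128, for Cxcl14 without onset replicate 1. Quantile normalization kept 3 of the 5 interferon-inducible and chemokine calls, the title part as a block 1, the Gapdh signal 1, the adrenal level 0, the fat level 0 and the hybridization controls 0. Changes without onset replicate 5 were 1.74 (adjusted p = 0.00446) for Ubd, 1.52 (adjusted p = 0.00435) for Cxcl13 and 0.96 (adjusted p = 0.0181) for Cxcl9. Of 25 chemokines and receptors measured, 2 rose and 0 fell (median 0.29, against 0.00 over all genes), and 5 rose and 1 fell without onset replicate 5. Of 12 genes of lymphoid tissue organisation, 2 rose, Cxcl13 and the homing receptor gene Ccr7, and 0 fell (median 0.29). Among 22 genes of the type I interferon response 0 passed, though 20 had changes above 0 (median 0.29). Its member with the smallest p was Irf9, at 0.42 ± 0.14 (adjusted p = 0.0818).

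The promoters of genes that rose were searched for the letters that interferon-activated factors are known to bind. The ISRE core was written GAAANNGAA and the GAS element TTCNNNGAA, on both strands, in the 250 bases before each start in the RefSeq promoter table of GRCm38.p6. Of the 94 genes that rose 64 had a promoter there, and 14 of them (21.9%) held the ISRE core, against 949 of all 12800 measured genes with a promoter (7.41%) and 16 of 228 genes that fell (7.02%). Lists that lay below 0 held it too, with 4 of 17 oxidative phosphorylation promoters (23.5%), 2 of 17 citrate cycle promoters (11.8%) and 4 of 30 proximal tubule promoters (13.3%). The GAS element was found in 4 of the 64 (6.25%) and in 7.45% of all. Besides the named genes Cxcl9, Cxcl14, Fcrla and Eomes, the 14 included Serpinb9, Jak3, Adar, Grb2 and Klrb1b. Shown here are 3 of these promoters, of a chemokine, a B cell and a cytotoxic cell gene, 5' to 3' on the strand of the gene, with the ISRE core match in capitals. Counted from the start, the first base of the match is at -175 in Cxcl9, -192 in Fcrla and -154 in Eomes. The search overlooks other spellings, and a match is not a binding site.
Cxcl9, chr5:92328080-92328329, minus strand: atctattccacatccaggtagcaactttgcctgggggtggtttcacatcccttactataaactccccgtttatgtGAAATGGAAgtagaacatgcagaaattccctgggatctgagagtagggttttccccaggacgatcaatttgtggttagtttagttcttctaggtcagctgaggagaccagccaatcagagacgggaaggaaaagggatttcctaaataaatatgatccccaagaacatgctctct
Fcrla, chr1:170927584-170927833, minus strand: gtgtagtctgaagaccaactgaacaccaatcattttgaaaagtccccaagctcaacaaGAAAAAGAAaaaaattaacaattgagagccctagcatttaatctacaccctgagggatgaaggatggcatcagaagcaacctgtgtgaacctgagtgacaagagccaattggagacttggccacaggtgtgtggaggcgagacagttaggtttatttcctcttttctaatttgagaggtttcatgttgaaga
Eomes, chr9:118477939-118478188, plus strand: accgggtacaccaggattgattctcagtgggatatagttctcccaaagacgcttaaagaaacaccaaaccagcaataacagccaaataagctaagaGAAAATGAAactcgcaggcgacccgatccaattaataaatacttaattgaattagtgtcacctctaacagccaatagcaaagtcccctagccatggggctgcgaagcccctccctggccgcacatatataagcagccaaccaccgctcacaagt

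Genes that load peptides onto class II molecules, by which antigen-presenting cells show antigen to T helper cells, rose. Log2 levels of H2-DMb1 ran from 5.82 to 7.22 at onset (median 6.07) and from 6.33 to 8.82 at 36 weeks (median 7.37). H2-DMb1, a chain of the H2-DM exchanger that swaps the invariant-chain remnant for antigen peptides, rose by 1.03 ± 0.26 (adjusted p = 0.0344). All 10 nephritic kidneys lay above the onset mean and 6 above every onset kidney. At onset, H2-DMb2 lay between 6.15 and 6.54 (median 6.28), and at 36 weeks between 6.27 and 8.49 (median 7.14). H2-DMb2, its sister chain, rose by 0.81 ± 0.19 (adjusted p = 0.0253), and in 9 of 10 nephritic kidneys it exceeded all onset kidneys, replicate 10 being the exception. H2-DMa, the partner chain, rose by 0.55 ± 0.15 (adjusted p = 0.0461), from 7.84 ± 0.34 to 8.38 ± 0.47 (SD), with overlapping groups. H2-K1 had levels of 9.93 to 11.17 at onset (median 10.43) and of 10.48 to 11.74 at 36 weeks (median 11.20). H2-K1, a class I heavy chain shown by nearly all cells to cytotoxic T cells, rose by 0.68 ± 0.18 (adjusted p = 0.0383), with onset replicate 5 at 11.17 within the nephritic range. Leaving out onset replicates 1, 2, 3, 4 and 6 ended 4, 4, 3, 2 and 4 of the 4 antigen presentation calls in that order, and 1, 1, 3, 3, 2 and 2 without 36-week replicates 1, 2, 4, 5, 6 and 7 in that order, the highest adjusted p being 0.144, for H2-DMa without onset replicate 1. Quantile normalization kept 3 of the 4 antigen presentation calls, the title part as a block 0, the Gapdh signal 0, the adrenal level 0, the fat level 0 and the hybridization controls 0. Without onset replicate 5 H2-DMb1 rose by 1.22 (adjusted p = 0.00366). Of 11 class II genes 2 rose, and 5 did without that array (median 0.43 and 0.50). With quantile normalization 1 rose, and 0 did with the adrenal or the fat level. Of 9 class I genes 1 rose, and 5 did without it (median 0.43 and 0.53). All of these had changes above 0, and 0 fell.

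Several genes of B and T lymphocytes rose. Log2 levels of Cd37 ran from 6.76 to 7.37 at onset (median 7.13) and from 6.89 to 8.51 at 36 weeks (median 7.70). Cd37, a tetraspanin of B cells, rose by 0.61 ± 0.15 (adjusted p = 0.0348), with 8 of 10 nephritic kidneys above all onset kidneys. At onset, Fcrla lay between 5.77 and 6.04 (median 5.91), and at 36 weeks between 5.90 and 7.32 (median 6.43). Fcrla, an Fc receptor-like protein of B cells, rose by 0.54 ± 0.14 (adjusted p = 0.0376), with 9 of 10 above all onset kidneys. Gimap7 had levels of 5.25 to 5.73 at onset (median 5.53) and of 5.31 to 7.44 at 36 weeks (median 6.34). Gimap7, a GTPase of lymphocytes, rose by 0.85 ± 0.21 (adjusted p = 0.0321), and replicates 1 and 5 were the highest nephritic kidneys. Among T cell genes, Lck, the kinase next to the T cell receptor, rose by 0.53 ± 0.14 (adjusted p = 0.0441) and the adhesion gene Cd2 by 0.50 ± 0.14 (adjusted p = 0.0499). Cd2 levels ran from 4.73 to 5.09 at onset and from 4.82 to 6.10 at 36 weeks, with replicates 3, 7 and 10 inside the onset range. Restraint of antigen receptor signalling is the known task of Sla, an adaptor, and of Ptpn22, a phosphatase, which rose by 0.70 ± 0.17 (adjusted p = 0.0321) and 0.75 ± 0.20 (adjusted p = 0.0438).

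Sla had levels of 5.92 to 7.0 at onset (median 6.28) and of 6.42 to 7.76 at 36 weeks (median 7.11). All 10 nephritic values of Sla lay above the onset mean. Eomes, a transcription factor of cytotoxic and natural killer cells, rose by 0.30 ± 0.08 (adjusted p = 0.0344), with replicate 5 at 5.73 and the other nephritic kidneys at or below 5.30. Ccr7, by which T cells and dendritic cells home to lymphoid tissue, rose by 0.35 ± 0.08 (adjusted p = 0.0186), and 8 of 10 nephritic kidneys exceeded all onset kidneys. The 9 lymphocyte calls lost 9, 8, 8, 5 and 9 of their number without onset replicates 1, 2, 3, 4 and 6 in that order, and 2, 2, 8, 7, 3 and 1 without 36-week replicates 1, 2, 4, 5, 6 and 7 in that order, the highest adjusted p being 0.143, for Lck without onset replicate 1. Of these 9 lymphocyte calls, 6 held with quantile normalization, 1 with the title part as a block, 1 with the Gapdh signal, 0 with the adrenal level, 2 with the fat level and 0 with the hybridization controls. Of 12 B cell markers 2 rose and 0 fell (median 0.46), and of 18 T cell markers 2 rose and 0 fell (median 0.30). These counts were 2 and 9 without onset replicate 5, and 2 and 0 with quantile normalization. Of 12 natural killer and cytotoxic markers 1 rose (median 0.23) and of 12 dendritic cell markers 1 rose (median 0.11), and 0 of either fell. All of the measured B, T, cytotoxic and dendritic cell markers had changes above 0.

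Antibody genes did not pass. Igkc, the constant region of the kappa light chain, ran from 11.47 to 14.51 at onset (median 13.57) and from 13.26 to 14.52 at 36 weeks (median 13.93). Its change was 0.68 ± 0.46 (adjusted p = 0.355). The onset kidneys were split, with replicates 1 and 6 at 12.02 and 11.47 and the other 4 at 13.20 or above, while all nephritic kidneys were at 13.26 or above. All 22 immunoglobulin and plasma cell genes had changes above 0 (median 0.67), 0 passed, and 5 rose without onset replicate 5. Its member with the smallest p was Irf4, a transcription factor of plasma cells, at 0.38 ± 0.12 (adjusted p = 0.0761). Of 9 Fc receptor genes, which bind antibody, 0 passed (median 0.37), and the kinase gene Syk among them stood at 0.46 ± 0.13 (adjusted p = 0.0527).

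On the lists of mononuclear phagocyte, neutrophil and complement genes, only 1 neutrophil gene passed. Of 24 markers of mononuclear phagocytes 0 passed, with 23 changes above 0 (median 0.39), and 6 rose without onset replicate 5. Mpeg1, a pore-forming protein of macrophages, had a change of 0.71 ± 0.24 (adjusted p = 0.0854). At onset it lay between 8.81 and 10.40, and at 36 weeks between 9.17 and 11.20, with replicate 5 the highest onset kidney. Of 17 complement genes 0 passed (median 0.20), and 6 rose without that array. C3, the component on which the pathways meet, ran from 9.41 to 11.57 at onset and from 9.75 to 12.03 at 36 weeks, a change of 0.79 ± 0.30 (adjusted p = 0.115). Without onset replicate 5 it was 1.06 (adjusted p = 0.0167). Of 22 genes of NF-kB and cytokines 0 passed and 7 did without that array (median 0.27 and 0.34), and Nfkb2 stood at 0.28 ± 0.09 (adjusted p = 0.0782). Of 11 neutrophil genes 1 rose, Cxcr2, the receptor of neutrophil chemokines, by 0.51 ± 0.14 (adjusted p = 0.0453), with 9 of 10 nephritic kidneys above the onset range. Of 12 genes that degrade or sense nucleic acids 0 passed (median 0.18). Sting1, which signals cytosolic DNA, came nearest, at 0.59 ± 0.17 (adjusted p = 0.0594).

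Tubular injury genes varied widely within both groups. Log2 levels of Lcn2 ran from 6.89 to 11.13 at onset (median 7.97) and from 7.0 to 12.07 at 36 weeks (median 10.04). Lcn2, a secreted protein that captures bacterial iron carriers and a classic injury marker, had a change of 1.70 ± 0.54 (adjusted p = 0.0742), larger than that of Ubd and not called. Onset replicate 5 stood at 11.13, while the next onset kidney was at 8.62. Only 2 of 10 nephritic kidneys lay above every onset kidney, and 36-week replicate 9, at 7.0, was the lowest nephritic kidney. Without onset replicate 5, the onset kidney highest in Lcn2, the change of Lcn2 was 2.27 (adjusted p = 0.00412). Havcr1, the kidney injury molecule of the proximal tubule, had a change of 0.52 ± 0.30 (adjusted p = 0.281), from 9.28 ± 0.62 to 9.80 ± 0.91 (SD), which overlapped. Of 27 injury and repair genes 1 rose (median 0.39), and 12 rose without onset replicate 5 (median 0.57). The 1 was Sox9, a transcription factor of tubules under repair, at 5.32 to 5.48 at onset and 5.48 to 5.87 at 36 weeks. It rose by 0.29 ± 0.06 (adjusted p = 0.0123), with the nephritic kidneys all above the onset mean and 7 of 10 above every onset kidney.

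Of 17 genes of the endoplasmic reticulum stress response 3 rose and 0 fell. Atf4, the transcription factor of the integrated stress response, rose by 0.30 ± 0.07 (adjusted p = 0.0307), its target Ddit3, which encodes CHOP, by 0.29 ± 0.08 (adjusted p = 0.0388) and Atf3 by 0.54 ± 0.15 (adjusted p = 0.0461). Atf4 levels ran from 9.80 to 10.12 at onset and from 10.03 to 10.58 at 36 weeks. All 10 nephritic values of Atf4 and Ddit3 lay above the onset means. The other members of the list did not pass, and its median was 0.04, with 6 changes below 0. Of the 5 calls of Cxcr2, Sox9, Atf3, Atf4 and Ddit3, 4, 5, 4, 4 and 4 were lost without onset replicates 1, 2, 3, 4 and 6 in that order, and 2, 3, 3, 1, 1 and 1 without 36-week replicates 3, 4, 5, 6, 7 and 8 in that order, the highest adjusted p being 0.125, for Atf3 without onset replicate 6. Of these 5 calls, 3 held with quantile normalization, 2 with the title part as a block, 2 with the Gapdh signal, 1 with the adrenal level, 0 with the fat level and 0 with the hybridization controls.

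Several genes of oxidative metabolism, on which the proximal tubule depends, fell. Log2 levels of Ppargc1a ran from 9.40 to 10.18 at onset (median 10.14) and from 8.06 to 10.11 at 36 weeks (median 9.04). Ppargc1a, which encodes PGC-1alpha, the coactivator of mitochondrial genes, fell by 0.96 ± 0.21 (adjusted p = 0.0187). Of the nephritic kidneys 7 lay below every onset kidney, while replicates 9 and 10, at 10.03 and 10.11, lay a little below the onset median. At onset, Sdhd lay between 11.37 and 11.92 (median 11.84), and at 36 weeks between 10.82 and 11.67 (median 11.32). Sdhd, a subunit of succinate dehydrogenase, which serves both the citrate cycle and the respiratory chain, fell by 0.46 ± 0.10 (adjusted p = 0.0145). All 10 nephritic kidneys lay below the onset mean, and onset replicate 5, at 11.37, lay among them. Cyc1, the cytochrome of complex III, fell by 0.48 ± 0.11 (adjusted p = 0.0253), and Ndufa9, a subunit of complex I, by 0.47 ± 0.11 (adjusted p = 0.0291). In the citrate cycle, Idh3b, a subunit of isocitrate dehydrogenase, fell by 0.52 ± 0.13 (adjusted p = 0.0363), and the succinyl-CoA ligase genes Sucla2 by 0.50 ± 0.13 (adjusted p = 0.0406) and Suclg1 by 0.45 ± 0.12 (adjusted p = 0.0363). For Suclg1 onset replicate 5 was at 11.51, against at least 12.14 in the other onset kidneys.

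Of 19 citrate cycle genes 7 fell and 0 rose, with all 19 changes below 0 (median -0.39, against 0.00 over all genes), and 16 fell without onset replicate 5. Of 25 genes of oxidative phosphorylation 6 fell and 0 rose (median -0.36), and 20 fell without that array. Over all fits with 1 array left out, 0 to 16 citrate cycle genes and 0 to 20 oxidative phosphorylation genes fell. The fall was smaller under quantile normalization, with medians of -0.17 and -0.13 and with 3 and 2 genes called. With the fat marker level as a covariate 0 of either list passed, and with the adrenal level 0 and 2 did. Of 27 genes of fatty acid oxidation and the peroxisome 1 fell, Ppargc1a (median -0.32), and 14 fell without onset replicate 5. Of 12 glycolysis and hypoxia genes 0 passed (median -0.02), Vegfa having the smallest p at -0.36 ± 0.13 (adjusted p = 0.0954). The nuclear receptor element TCAAGGTCA is known to be bound by partners of PGC-1alpha of the estrogen-related receptor family. It was found in 0 of 17 citrate cycle and 0 of 17 oxidative phosphorylation promoters, against 0.344% of all. For an element this rare, 0 is the likeliest count in 17 promoters of any kind, so these counts cannot tell the lists from other genes. Of genes that fell 2 of 228 promoters held it (0.877%), and of genes that rose 1 of 64 (1.56%).

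Gatm and Mpst, enzymes of amino acid handling, were among the larger falls. Log2 levels of Gatm ran from 9.93 to 13.03 at onset (median 12.34) and from 8.90 to 12.27 at 36 weeks (median 10.54). Gatm, which catalyses the committed step of creatine synthesis in the kidney, fell by 1.54 ± 0.39 (adjusted p = 0.0370). It varied widely among nephritic kidneys, with replicates 1, 3 and 10 at or below 9.45 and replicates 2 and 6 at or above 12.02, and onset replicate 5 was the lowest onset kidney. Mpst, a sulfurtransferase of cysteine breakdown, fell by 0.98 ± 0.20 (adjusted p = 0.0123), from 8.24 ± 0.73 to 7.26 ± 0.35 (SD). At onset, Lactb2 lay between 10.78 and 12.88 (median 12.72), and at 36 weeks between 10.94 and 12.20 (median 11.37). Lactb2, a mitochondrial endoribonuclease, fell by 0.87 ± 0.22 (adjusted p = 0.0353), though onset replicate 5 lay below all nephritic kidneys. Of 21 genes of gluconeogenesis and amino acid metabolism 2 fell, Gatm among them, and 0 rose (median -0.35). Leaving out onset replicate 5, 12 fell and 1 rose, and Gatm fell by 1.96 (adjusted p = 0.00152). With quantile normalization the median of the list was -0.18, and 0 passed there or with the adrenal or fat level. Leaving out onset replicates 1, 2, 3, 4 and 6 ended 9, 10, 7, 6 and 7 of the 10 metabolic calls in that order, and 1, 7, 6 and 1 without 36-week replicates 3, 4, 5 and 7 in that order, the highest adjusted p being 0.122, for Gatm without onset replicate 2. Of these 10 metabolic calls, 5 held with quantile normalization, 3 with the title part as a block, 3 with the Gapdh signal, 2 with the adrenal level, 0 with the fat level and 0 with the hybridization controls.

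**Figure D3:**
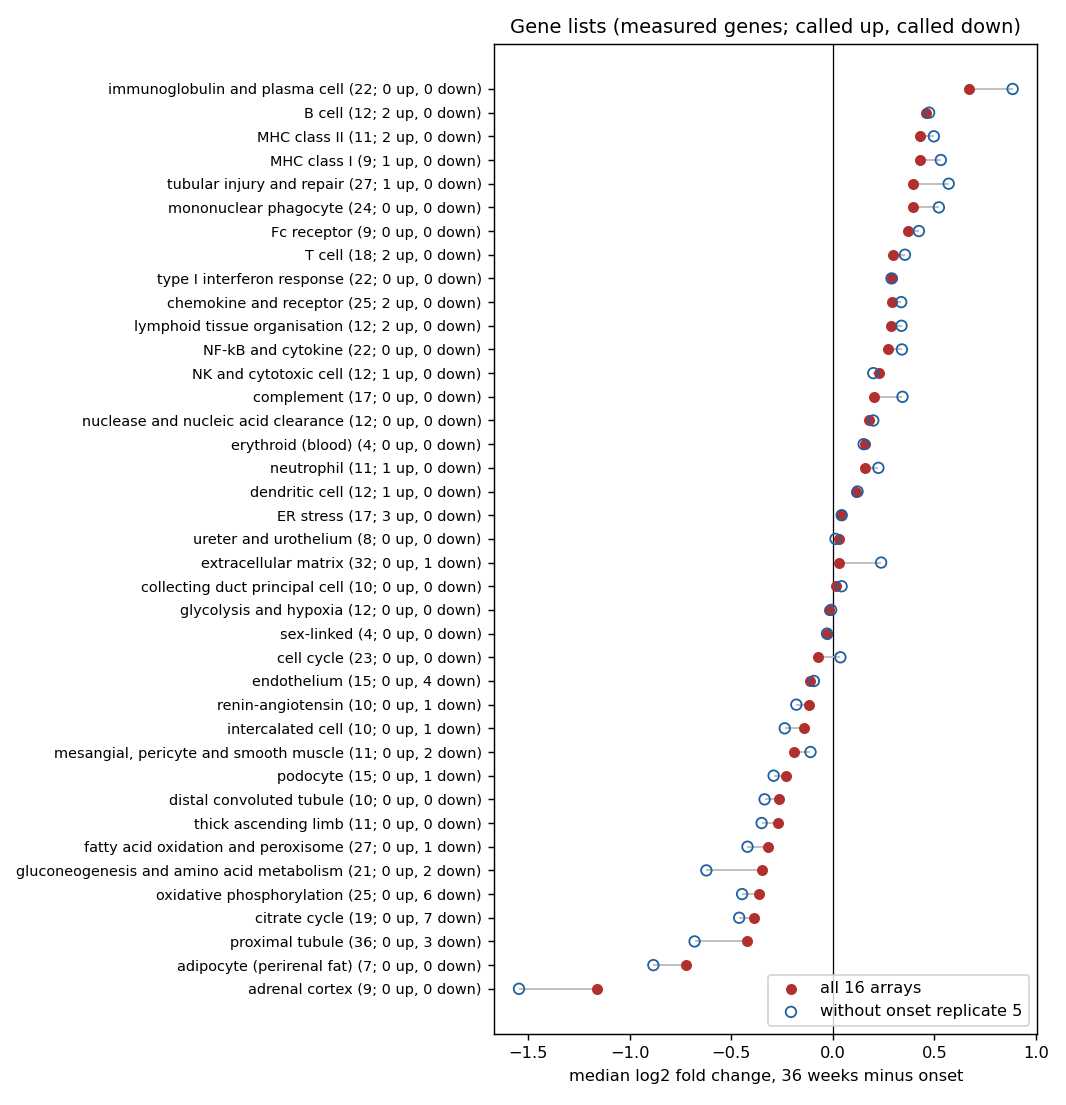
Each line is a gene list, with the number of measured genes and of genes called up and down in brackets. Filled points give the median log2 fold change of 36 weeks minus onset with all 16 arrays and open points without onset replicate 5. Immune lists lie to the right of 0 and metabolic and proximal tubule lists to the left, and leaving out that array moves the proximal tubule median from -0.42 to -0.68.

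A few genes of the proximal tubule fell. Log2 levels of Slc5a2 ran from 9.68 to 11.19 at onset (median 10.81) and from 8.98 to 10.75 at 36 weeks (median 9.80). Slc5a2, the sodium-glucose cotransporter SGLT2 of the early proximal tubule, fell by 0.92 ± 0.23 (adjusted p = 0.0335), with 5 of 10 nephritic kidneys below every onset kidney. Amn, which holds the receptor cubilin at the membrane for protein uptake, fell by 0.54 ± 0.15 (adjusted p = 0.0498), from 11.26 ± 0.34 to 10.72 ± 0.46 (SD), and Cyp2j5, a cytochrome P450 that converts arachidonic acid, by 0.67 ± 0.18 (adjusted p = 0.0461). Slc34a1 had levels of 11.49 to 13.35 at onset (median 13.22) and of 11.20 to 13.12 at 36 weeks (median 12.08). Slc34a1, the main phosphate transporter, had a change of -0.75 ± 0.25 (adjusted p = 0.0875), and of -1.03 (adjusted p = 0.00430) without onset replicate 5. Of 36 proximal tubule markers 3 fell and 0 rose (median -0.42), and 21 fell without that array (median -0.68). Over all fits with 1 array left out, 0 to 21 of them fell. Under quantile normalization the median was -0.22 with 0 called, and 0 passed with the adrenal or the fat level.

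Further along the nephron few markers passed. Of 11 thick ascending limb markers 0 passed (median -0.27): Umod, which encodes uromodulin, had a change of -0.27 ± 0.09 (adjusted p = 0.0844), whose sign turned under quantile normalization (0.0471), and Egf, the growth factor precursor of the distal nephron, one of -0.82 ± 0.31 (adjusted p = 0.115). At onset, Egf lay between 10.96 and 13.52 (median 13.25), and at 36 weeks between 10.44 and 13.21 (median 12.22). Egf, at 10.96 in onset replicate 5, without that array fell by 1.21 (adjusted p = 0.00417). Slc12a1, the sodium-potassium-chloride cotransporter, stood at -0.42 ± 0.13 (adjusted p = 0.0685). Of 10 distal convoluted tubule markers 0 passed (median -0.27), with the sodium-calcium exchanger Slc8a1 at -0.48 ± 0.17 (adjusted p = 0.0914). Of 10 principal cell markers 0 passed (median 0.02), with the water channel Aqp4 at -0.93 ± 0.35 (adjusted p = 0.109). Of 10 intercalated cell markers 1 fell, Car2, the cytosolic carbonic anhydrase, by 0.50 ± 0.13 (adjusted p = 0.0364), with 7 of 10 nephritic kidneys below all onset kidneys. Of the 4 tubule calls, all 4 were lost without any 1 of onset replicates 1, 2, 3, 4 and 6, and 1, 2, 4, 4 and 2 without 36-week replicates 1, 3, 4, 5 and 7 in that order, the highest adjusted p being 0.140, for Amn without onset replicate 2. Of these 4 calls of tubule genes, 0 held with quantile normalization, 0 with the title part as a block, 1 with the Gapdh signal, 0 with the adrenal level, 0 with the fat level and 0 with the hybridization controls. Of 8 urothelial markers 0 passed (median 0.03), Upk2 being at 0.13 ± 0.07 (adjusted p = 0.247).

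Genes of contractile and glomerular cells fell, Myh11 and Agtr1a among them. Log2 levels of Myh11 ran from 6.96 to 7.47 at onset (median 7.22) and from 6.02 to 7.04 at 36 weeks (median 6.50). Myh11, the myosin heavy chain of smooth muscle, fell by 0.74 ± 0.13 (adjusted p = 0.00478), with 9 of 10 nephritic kidneys below every onset kidney. At onset, Agtr1a lay between 9.82 and 10.24 (median 9.93), and at 36 weeks between 8.79 and 9.82 (median 9.33). Agtr1a, the receptor through which angiotensin II tightens vessels, fell by 0.66 ± 0.12 (adjusted p = 0.00813), again with 9 of 10 below all onset kidneys. Myh11 and Agtr1a stayed called with any 1 array left out, with the adrenal and fat marker levels and with the hybridization controls. Itga8, the integrin of mesangial cells, fell by 0.71 ± 0.16 (adjusted p = 0.0200), and 7 of 10 nephritic kidneys lay below the onset range of 7.01 to 8.22. Of 11 mesangial, pericyte and smooth muscle markers 2 fell (median -0.19), and of 10 renin-angiotensin genes 1 fell, Agtr1a (median -0.12). Of both lists 0 rose.

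Log2 levels of Esm1 ran from 6.87 to 8.29 at onset (median 8.08) and from 6.20 to 8.15 at 36 weeks (median 6.54). Esm1, which encodes endocan, a proteoglycan secreted by endothelium, fell by 1.04 ± 0.28 (adjusted p = 0.0401), with 36-week replicate 1, at 8.15, as high as the upper onset kidneys. Kdr, the main receptor of the growth factor VEGF on endothelium, fell by 0.39 ± 0.10 (adjusted p = 0.0320), Emcn, the endothelial sialomucin, by 0.42 ± 0.12 (adjusted p = 0.0498), Ehd3, a membrane-trafficking gene of glomerular endothelium, by 0.33 ± 0.08 (adjusted p = 0.0335) and the endothelial and progenitor marker Cd34 by 0.37 ± 0.09 (adjusted p = 0.0282). Kdr lay between 9.01 and 9.41 at onset and between 8.38 and 9.23 at 36 weeks, and 8 of 10 nephritic kidneys were below every onset kidney. Of 15 endothelial markers 4 fell and 0 rose (median -0.11, with 14 changes below 0). These were Kdr, Emcn, Ehd3 and the tight junction gene Cldn5 at -0.27, while Cd34 and Esm1 were not on that list. Of 15 podocyte markers 1 fell (median -0.23). This was Tcf21, a transcription factor of podocytes and stroma, by 0.58 ± 0.13 (adjusted p = 0.0245), with 8 of 10 nephritic kidneys below all onset kidneys. The nephrin gene Nphs1, which builds the slit diaphragm, stood at -0.23 ± 0.15 (adjusted p = 0.344). Of 32 matrix genes 1 fell, Timp3, an inhibitor of metalloproteinases bound to matrix, by 0.51 ± 0.14 (adjusted p = 0.0487), and 0 rose (median 0.03). The 10 contractile, vascular and glomerular calls lost 6, 8, 4, 6 and 8 of their number without onset replicates 1, 2, 3, 4 and 6 in that order, and 1, 3, 4, 6, 2 and 2 without 36-week replicates 1, 3, 4, 5, 6 and 7 in that order, the highest adjusted p being 0.142, for Emcn without onset replicate 6. Quantile normalization kept 5 of the 10 contractile, vascular and glomerular calls, the title part as a block 2, the Gapdh signal 5, the adrenal level 2, the fat level 2 and the hybridization controls 2. No endothelial marker on the list passed with quantile normalization, the adrenal level or the fat level.

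Several large changes lay outside the lists. Log2 levels of Cela1 ran from 10.92 to 12.90 at onset (median 11.47) and from 9.58 to 10.79 at 36 weeks (median 10.56). Cela1, an elastase, fell by 1.23 ± 0.20 (adjusted p = 0.00478), and every nephritic kidney was below every onset kidney. Here onset replicate 5 was the highest, and without it the fall was 0.97 (adjusted p = 0.00120). At onset, Lpar3 lay between 6.52 and 8.63 (median 8.21), and at 36 weeks between 6.22 and 7.98 (median 6.95). Lpar3, a receptor of lysophosphatidic acid, fell by 1.11 ± 0.24 (adjusted p = 0.0185), with onset replicate 5 at 6.52, among the nephritic values. Apob, the protein of lipoprotein particles, fell by 1.29 ± 0.34 (adjusted p = 0.0383), Nepn, the proteoglycan nephrocan, by 0.84 ± 0.23 (adjusted p = 0.0453), and Myom2, a protein of the sarcomere, by 0.84 ± 0.18 (adjusted p = 0.0186). Car3 had levels of 8.77 to 11.71 at onset (median 10.87) and of 7.25 to 11.04 at 36 weeks (median 8.60). Car3, a carbonic anhydrase abundant in fat and muscle, fell by 1.81 ± 0.47 (adjusted p = 0.0376), the largest of the 288 falls. With the fat marker level as a covariate its change was -0.58 (adjusted p = 0.213).

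Log2 levels of Cyp2d9 ran from 6.98 to 8.35 at onset (median 7.55) and from 7.58 to 10.84 at 36 weeks (median 8.72). Cyp2d9, a cytochrome P450 with near-identical relatives, rose by 1.22 ± 0.34 (adjusted p = 0.0453), replicates 3 and 10 being the highest. B4galnt1, an enzyme of ganglioside synthesis, rose by 0.91 ± 0.20 (adjusted p = 0.0213), and AI451557, to which no role is given here, by 0.96 ± 0.25 (adjusted p = 0.0396). Leaving out onset replicates 1, 2, 3, 4 and 6 ended 8, 8, 6, 5 and 7 of the 9 calls of Cela1, Lpar3, Apob, Nepn, Myom2, Car3, Cyp2d9, B4galnt1 and AI451557 in that order, and 1, 3, 5, 4, 3 and 1 without 36-week replicates 1, 3, 4, 5, 6 and 7 in that order, the highest adjusted p being 0.130, for Apob without onset replicate 1. Of these 9 calls, 4 held with quantile normalization, 4 with the title part as a block, 4 with the Gapdh signal, 1 with the adrenal level, 1 with the fat level and 1 with the hybridization controls. Of 9 adrenal cortex markers 0 passed (median -1.16), the nearest being Akr1b7 at -1.79 ± 0.73 (adjusted p = 0.139), and of 7 fat cell markers 0 passed (median -0.72), with Fabp4 at -0.79 ± 0.24 (adjusted p = 0.0651). Of 4 erythroid genes 0 passed (median 0.16), with Epor at 0.17 ± 0.06 (adjusted p = 0.0957), and of 4 sex-linked genes 0 passed (median -0.03), with Ddx3y at 0.08 ± 0.03 (adjusted p = 0.115). The adrenal and fat medians lie further below 0 than those of the other 37 lists.

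The late step, onset to 36 weeks, was then tested against the onset step at 23 weeks, non-proteinuric kidneys to onset. In the onset step 345 genes were called (2.09%). Both steps share the onset arrays, so an onset array that is high makes the first step larger and the second smaller. The difference of the steps passed for 15 genes (0.0910%), and 2667 had an unadjusted p under 0.05. For 13 of them the late step was lower, and in all 13 the mean was higher at onset than before it and lower at 36 weeks than at onset. Of these late falls, those of Cdc20, Vim, Ets1 and Prkg1 did not pass by themselves (adjusted p = 0.271, 0.268, 0.0963 and 0.0601), nor did the onset rise of Meis2 (adjusted p = 0.0729). Log2 levels of Vim ran from 9.49 to 10.86 at onset (median 9.91) and from 8.96 to 10.28 at 36 weeks (median 9.75). Vim, which encodes vimentin, the filament of mesenchymal and injured tubular cells, averaged 8.72 before proteinuria, and its step values were 1.32 in the onset step and -0.32 in the late step, a difference of -1.64 ± 0.32 (adjusted p = 0.0240). Cdc20, the activator of the anaphase-promoting complex in mitosis, averaged 5.76 before proteinuria, 7.43 at onset and 7.02 at 36 weeks. Its steps were 1.68 and -0.42, a difference of -2.09 ± 0.42 (adjusted p = 0.0321). Without onset replicate 5 the late step was -0.15 for Vim and -0.23 for Cdc20. Of 23 cell cycle genes 12 rose in the onset step (median 0.53), while 0 passed in the late step (median -0.07, and 0.04 without onset replicate 5), where Aurka had the smallest p, at -0.18 ± 0.09 (adjusted p = 0.235).

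Cd34 had steps of 0.67 and -0.37, a difference of -1.04 ± 0.16 (adjusted p = 0.00181), the smallest p of the 15. At onset, Meis2 lay between 8.51 and 8.77 (median 8.67), and at 36 weeks between 7.80 and 8.33 (median 8.0). Meis2, a homeobox transcription factor, fell by 0.62 ± 0.10 in the late step (adjusted p = 0.00478), with every nephritic kidney below every onset kidney and below the non-proteinuric mean of 8.34. Robo1 had levels of 4.75 to 5.33 at onset (median 5.01) and of 4.32 to 4.70 at 36 weeks (median 4.46). Robo1, a receptor of Slit guidance cues, fell by 0.53 ± 0.10 (adjusted p = 0.00928), but the authors' table flags it as not expressed in NZB/W and its levels are low. The step differences of Meis2 and Robo1 were -0.94 ± 0.18 and -0.93 ± 0.18 (adjusted p = 0.0240 for both). The other 2 of the 15 went down and then up. Log2 levels of Aph1a ran from 8.60 to 8.76 at onset (median 8.65) and from 8.80 to 9.09 at 36 weeks (median 8.94). Aph1a rose by 0.27 ± 0.05 (adjusted p = 0.00762), with no overlap between the groups, and Wipf2, a regulator of actin, by 0.22 ± 0.06 (adjusted p = 0.0320). The 5 calls of Meis2, Robo1, Aph1a, Wipf2 and Cd34 in the late step lost 1, 2, 1, 2 and 1 of their number without onset replicates 1, 2, 3, 4 and 6 in that order, and 1 and 2 without 36-week replicates 4 and 5 in that order, the highest adjusted p being 0.0884, for Cd34 without onset replicate 2. Quantile normalization kept 5 of the 5 late-step calls, the title part as a block 4, the Gapdh signal 5, the adrenal level 3, the fat level 3 and the hybridization controls 1. Without onset replicate 5 the step difference passed for 14 genes, 6 of them among the 15. The calls kept above are those of the late step and not of the step difference. The count of 15 step differences was 4 to 44 with 1 array left out and 6 with quantile normalization. It was 1 with only the groups of the contrast, 0 with the hybridization controls as a covariate and 1262 with array weights.

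**Figure D4:**
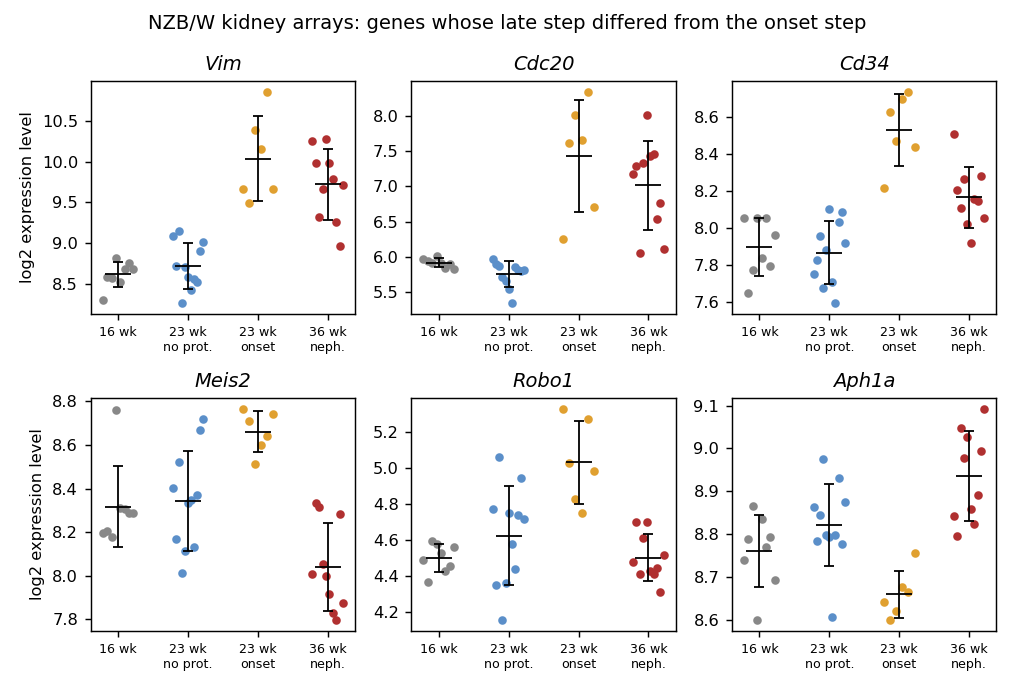
Log2 level on each NZB/W array of 6 genes whose late step differed from their onset step, with the mean and SD of each group in black. Vim, Cdc20, Cd34, Meis2 and Robo1 are highest on average at onset, and Aph1a is lowest there.

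The 2 other strains, measured on other arrays, were set beside these calls, nephritic against prenephritic. The NZB/W calls start from kidneys at the onset of proteinuria, so the stages compared may be unlike between strains. In NZM2410 4161 genes were called (25.3%) and in NZW/BXSB 3319 (20.1%), so these lists are far longer. By direction, 11.4% of all genes rose and 13.8% fell in NZM2410, and 11.4% rose and 8.73% fell in NZW/BXSB. Of the 94 rises, 43 (45.7%) also rose in NZM2410, 2.28% of its 1884 rises, and 33 (35.1%) in NZW/BXSB, 1.76% of its 1880. Of the 288 falls, 134 (46.5%) also fell in NZM2410, 5.88% of its 2277 falls, and 44 (15.3%) in NZW/BXSB, 3.06% of its 1439. Calls in the opposite direction were 0 and 8 in NZM2410 and 3 and 12 in NZW/BXSB, for rises and falls. Ubd rose in both strains, by 3.45 and 1.60 (adjusted p = 0.00276 and 0.00271), as did H2-DMb1, by 2.23 and 0.94 (adjusted p = 0.000450 and 0.00113). The B cell gene Cd37 did not pass in either, at 0.08 and 0.02 (adjusted p = 0.738 and 0.940), nor did Myh11, at 0.10 and 0.10 (adjusted p = 0.691 and 0.464). Esm1 fell in both, by 1.12 and 1.03 (adjusted p = 0.00939 and 0.0254). Cyp2d9 rose by 1.14 in NZM2410 (adjusted p = 0.00106) and fell by 1.63 in NZW/BXSB (adjusted p = 0.000513). Differences between strains were not tested.

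The nephritic kidneys differed among themselves. Replicate 10 had the highest Lcn2 (12.07) and the lowest Ubd (5.52), Cxcl9 (6.53) and Gimap7 (5.31) of the 10. Replicate 5 had the highest Ubd (9.47), Cxcl9 (9.26), H2-DMb1 (8.82), Cd37 (8.51) and Gimap7 (7.44). Over the 10 kidneys, 6 relations of Lcn2 to single genes were computed (permutation tests, two-sided, Benjamini-Hochberg over the 6). Lcn2 went with C3, at Pearson's r = 0.91 (p = 0.00057, adjusted 0.00342) and Spearman's rho = 0.84 (p = 0.00375, adjusted 0.0211). Without replicates 9 and 10, the 2 farthest from the Lcn2 median, r was 0.93. Egf went against Lcn2 by rank (rho = -0.81, p = 0.00705, adjusted 0.0211), while r was -0.68 (p = 0.0292, adjusted 0.0877), and -0.83 without those 2. For Slc34a1 r was -0.56 (adjusted p = 0.179) and rho -0.70 (adjusted p = 0.0622). For Igkc, C1qb and Cdc20 r was -0.22, -0.07 and -0.09 (permutation p = 0.538, 0.842 and 0.80), and rho -0.21, -0.13 and -0.04 (permutation p = 0.562, 0.732 and 0.918). Among the 10 kidneys 3 pairs share a title part, replicates 2 and 3, 4 and 5, and 6 and 10. The permutations shuffled all 10 kidneys freely, so their p-values take no account of these pairs. In each pair the kidney with the higher Lcn2 also had the higher C3 and the lower Egf and Slc34a1. For replicates 6 and 10 Lcn2 stood at 8.93 and 12.07 and C3 at 10.86 and 11.45, and for replicates 4 and 5 Lcn2 differed little, at 10.61 and 10.80.

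**Figure D5:**
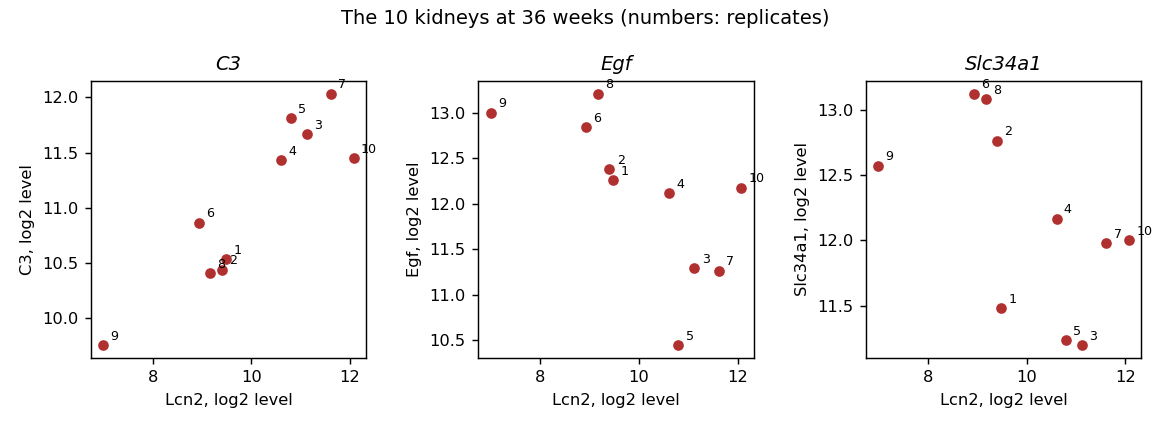
Each point is 1 of the 10 kidneys at 36 weeks, numbered by replicate, with the log2 level of Lcn2 on the horizontal axis and of C3, Egf or Slc34a1 on the vertical axis. C3 is higher and Egf lower where Lcn2 is higher, and replicate 9 has the lowest Lcn2 at 7.0.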

How the data were processed

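RNA of whole kidneys was extracted with Trizol and hybridized as biotin-labelled cRNA to Affymetrix arrays, per the labels' protocols. The deposited tables hold log2 expression per gene after RMA, which normalizes arrays together, per the submitters' processing notes. The RMA version, the array type and the genome build are not given in the sources used here. Each strain has its own table, and tests stayed within a table. Of 16475 gene rows, after 64 control rows were set aside, 16229 matched RefSeq by gene ID, which updated 2163 symbols, and 246 kept the name in the file.

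The 4 NZB/W group means were fitted to 35 arrays with limma 3.58.1 in R 4.3.3, with Benjamini-Hochberg adjustment over all genes. The second contrast was the late step minus the onset step. The genes named were the 12 largest rises and 12 largest falls, up to 3 called members of each list or the member with the smallest p, the 5 largest step differences in each direction, and 8 fixed genes. A gene that this rule chose is not reported here. Of 640 symbols in 39 lists 595 were measured. The comparison, the members and the lists were chosen with earlier results of these data known. The 29 alternatives covered normalization, the arrays and groups fitted, array weights, filters, variance priors, blocks and covariates.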

Additional observations from a re-analysis of the deposited data

Results flagged for a closer look

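Within groups, 172 sets of values, each of the named genes in the onset and in the 36-week kidneys, were checked for an array far from the others, and 24 stood out by Dixon's criterion, the gap to the nearest value over the range of the group. That criterion marks about 1 in 20 groups by chance. Onset replicate 5 was the array in 19 of the 24. It was far below the other onset kidneys in genes of metabolism, with Ppargc1a at 9.40, Suclg1 at 11.51, Sucla2 at 11.10, Idh3b at 11.20, Sdhd at 11.37, Ndufa9 at 11.30, Cyc1 at 12.44 and Lactb2 at 10.78. It was also far below them in tubule genes, with Slc34a1 at 11.49, Cyp2j5 at 10.95, Umod at 13.43, Slc12a1 at 12.61, Egf at 10.96 and Aqp4 at 8.59, and in Timp3 at 10.83, Nepn at 5.69 and Lpar3 at 6.52. It was far above them in Cxcl14 at 7.15 and Atf4 at 10.12. The other 5 were Ddit3 at 7.95 in onset replicate 3, Wipf2 at 7.20 in onset replicate 6, Slc8a1 at 8.77 in onset replicate 2, and Eomes at 5.73 and Suclg1 at 11.07 in 36-week replicate 5.

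For 7 named genes the late step differed from the onset step by the limma contrast of the steps. The differences were -2.09 for Cdc20, -1.64 for Vim, -1.04 for Cd34, -0.94 for Meis2, -0.93 for Robo1, 0.44 for Aph1a and 0.46 for Wipf2.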

How the results depend on the processing

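Counts of genes called are given first for 36 weeks against onset and then for the late step minus the onset step, with 382 and 15 called as reported. Quantile normalization gave 205 and 6, the contrast's own groups alone 1 and 1, array weights 2352 and 1262, the title part as a random block 73 and 12, hybridization controls as a covariate 9 and 0, and the Gapdh 3' minus 5' signal 110 and 59. The variance trend gave 330 and 9. Of the alternatives added after the data were seen, the adrenal marker level gave 37 and 12, the fat marker level 32 and 55, and leaving out onset replicate 5 and 36-week replicate 9 together 2656 and 66. With 1 array left out the counts ran from 19 to 2008 and from 4 to 44. The replicate block gave 1882 and 32, but same-numbered onset and 36-week arrays deviated together at correlations of -0.244 to 0.431, and 1 of 6 onset arrays matched its own number best, so the numbers do not pair the samples.

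Of the 60 named calls, 60 held without onset replicate 5 and without 36-week replicates 9 and 10, but only 7 without onset replicate 2, 10 without onset replicate 1, 12 without onset replicate 6, 22 without 36-week replicate 4 and 22 without 36-week replicate 5. Their direction turned in 0 of these settings. Umod, not called, changed sign under quantile normalization, to 0.0471. Of the correlations of Lcn2, that with C1qb became 0.0166 under quantile normalization and ran from -0.249 to 0.0912 with 1 kidney left out. That with Cdc20 became 0.00238 and ran from -0.270 to 0.196, and that with Igkc ran from -0.356 to 0.0316. The cause of these changes was not tested. The number of arrays limits the precision, and the adrenal and fat marker levels moved with the groups.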

Other observations

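Some further genes outside the lists fell. Lamtor5, a subunit of the Ragulator complex that brings mTORC1 to lysosomes, stood at 11.17 ± 0.27 at onset and 10.59 ± 0.23 at 36 weeks (SD, n = 6 and 10). It fell by 0.58 ± 0.11 (limma, adjusted p = 0.0088), and by 0.53 in nephritic NZM2410 kidneys (adjusted p = 0.00349). In NZB/W its groups overlapped, with 5 of 10 nephritic kidneys below every onset kidney. Rcn2, a calcium-binding protein of the endoplasmic reticulum, fell from 9.34 ± 0.10 to 8.95 ± 0.14 (SD), by 0.39 ± 0.07 (adjusted p = 0.0104), with 9 of 10 nephritic kidneys below every onset kidney. Golga7, a partner of a palmitoyltransferase, fell by 0.35 ± 0.07 (adjusted p = 0.00928) without overlap between the groups. It had risen by 0.26 in the onset step (adjusted p = 0.0275), and its change from 16 to 36 weeks was -0.09 (adjusted p = 0.308). With quantile normalization Lamtor5 and Rcn2 stayed called, but Golga7 did not (adjusted p = 0.218). With the hybridization controls as a covariate none of Lamtor5, Rcn2 and Golga7 stayed called. These genes were chosen after their values were seen.

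Of the 15 genes whose 36-week values all lay above the onset values, several had low levels and narrow onset groups. In all 15 the onset mean was also below that of the 23-week non-proteinuric kidneys, which follows in part from picking genes by the same onset values. Acbd7 stood at 4.03 ± 0.02 at onset and 4.16 ± 0.08 at 36 weeks (SD), and Potegl at 4.48 ± 0.03 and 4.86 ± 0.32 (SD). At higher levels Lin37, a subunit of the DREAM complex that represses cell cycle genes, stood at 7.98 ± 0.04 and 8.51 ± 0.30 (SD). At 16 weeks and at 23 weeks without proteinuria Acbd7 averaged 4.11 and 4.14, Potegl 4.65 and 4.64, and Lin37 8.11 and 8.23. From 16 to 36 weeks Acbd7 changed by 0.04 (limma, adjusted p = 0.480) and Lin37 by 0.40 (adjusted p = 0.00478). Acbd7, flagged as not expressed, was not called against onset either (adjusted p = 0.0867).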
